A study of Mus musculus with 24 samples.

Results

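Mouse granulocyte monocyte progenitors (GMP) infected with an empty GFP vector and cultured were compared with GMP that had only been sorted. The comparison used 7 of the study's 24 arrays, chosen by their titles: 3 arrays of GFP GMP and 4 of fresh GMP. All of these cells came from C57BL/6 mice, and no other allele or treatment is given for either group. The GFP GMP were spin-infected with a vector that encodes GFP alone, and the GFP-positive cells were lysed 36 hours later. The fresh GMP were sorted from normal mice and were neither infected nor, as far as the labels say, cultured. The medium, the cytokines, the vector's promoter and the sort gates are not given in the sources used here. Infection, culture, the hours that passed and the selection of GFP-positive cells differed together between the groups, so their parts cannot be told apart. The labels do not say whether replicates came from separate mice or cultures, so the p-values rest on the spread between these arrays alone, some of which may be technical. The other 17 arrays hold fresh LSK cells (Lin-, Sca-1+, Kit+ stem and progenitor cells), GMP infected with MOZ-TIF2, NUP98-HOXA9 or AML1-ETO, and MOZ-TIF2 leukemic GMP.

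GMP are bone marrow progenitors that have lost the megakaryocyte and erythroid fates and give rise to neutrophils and monocytes. They are sorted as cells with Kit, Cd34 and Fc gamma receptors and without Sca-1, and they make the proteins of the primary granules, such as myeloperoxidase and elastase. Outside the marrow they live and divide only with cytokines, which signal through Kit, the shared beta chain of the IL-3 and GM-CSF receptors, and gp130 or the G-CSF receptor to JAK and STAT proteins. An empty-vector culture of this kind is the usual control for an infected oncogene.

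The values are log2 expression estimates from Affymetrix Mouse Genome 430A 2.0 arrays, 1 array per sample. A gene was tested where its value was over 60 on the linear scale (5.91 on the log2 scale, the level the study used as background) on at least 2 arrays of a group, and it was called where limma's p-value, adjusted by Benjamini-Hochberg over all probe sets tested (called adjusted p below), was under 0.05. Both groups carried high levels of RNA for some primary granule proteins that GMP make. Mpo (myeloperoxidase) averaged 13.68 ± 0.07 (SD, n = 4) in fresh and 13.31 ± 0.13 (SD, n = 3) in GFP GMP, and Elane (elastase) 13.30 ± 0.18 and 13.24 ± 0.19. Neither was called (limma adjusted p = 0.103 for Mpo and 0.843 for Elane), nor were the granule proteases Prtn3 (difference -0.10) and Ctsg (0.02). These 4 genes were chosen after their values were seen. Of the sort markers, Kit and Cd34 were lower and Fcgr3 higher in GFP GMP, with values given below, and Ly6a, which encodes Sca-1, has no value here. Il7r, Thy1 and Slamf1, markers of lymphoid and stem cells, stayed under 60 on all 7 arrays, with a highest value of 5.54.

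Fresh GMP 2 stood apart from the other fresh arrays. Between 654 and 2229 of the 11363 probe sets tested differed at least 2-fold between it and another fresh array, against 53 to 193 between the other fresh arrays and 37 to 100 between GFP arrays. In a principal component analysis of the 7 arrays the first component (59.3% of the variance) separated the groups, at -33.6 to -24.6 for fresh and 37.7 to 41.5 for GFP arrays, while the second (27.6%) placed fresh GMP 2 at -52.0 and the other 6 arrays between -1.31 and 31.3. Fresh GMP 2 also had the widest gap of the 7 between the 3' and 5' control probe sets of Gapdh, 4.33 on the log2 scale against 2.71 to 4.12 on the others, and its part in the results was not tested beyond leaving it out. Fresh GMP 4 is the 1 array of the 7 whose file name carries a different tag, and without it 1152 genes (16.4%) were called, 708 (10.1%) higher and 444 (6.32%) lower.

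RNA levels differed widely between the groups. Of 7103 genes tested, 1179 (16.6%) were called, 623 (8.77%) higher and 556 (7.83%) lower in GFP GMP. Without fresh GMP 2, 2616 of 7027 genes (37.2%) were called, 885 (12.6%) higher and 1731 (24.6%) lower, and 1178 of the 1179 genes were called in the same direction. Leaving out another array gave 543 (without GFP GMP 2) to 1152 (without fresh GMP 4) called genes, with 598 without GFP GMP 1, 712 without GFP GMP 3 and 739 without fresh GMP 1 and again without fresh GMP 3, and 484 genes were called whichever array was left out. The groups did not overlap on any array for 2165 genes (30.5%), 1074 (15.1%) higher and 1091 (15.4%) lower, 2217 (31.2%) had an unadjusted p under 0.05, and the median difference of all genes tested was -0.05. Of the called genes, 508 (7.15%) changed at least 2-fold, 347 (4.89%) of them higher and 161 (2.27%) lower.

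**Figure D1:**
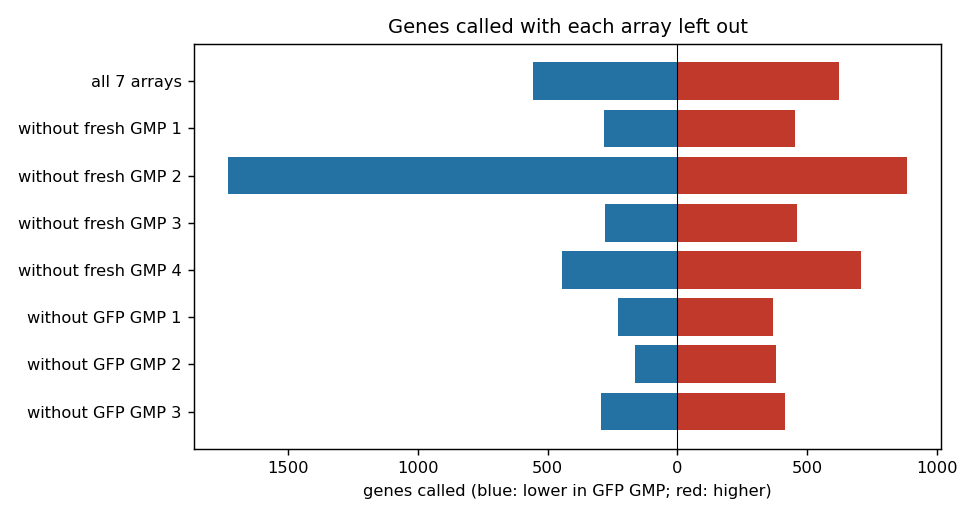
Number of genes called (limma adjusted p under 0.05) with all 7 arrays and with each array left out; blue bars to the left count genes lower in GFP GMP and red bars to the right genes higher. Without fresh GMP 2 the lower calls rise from 556 to 1731, and without GFP GMP 2 they fall to 163.

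**Figure D2:**
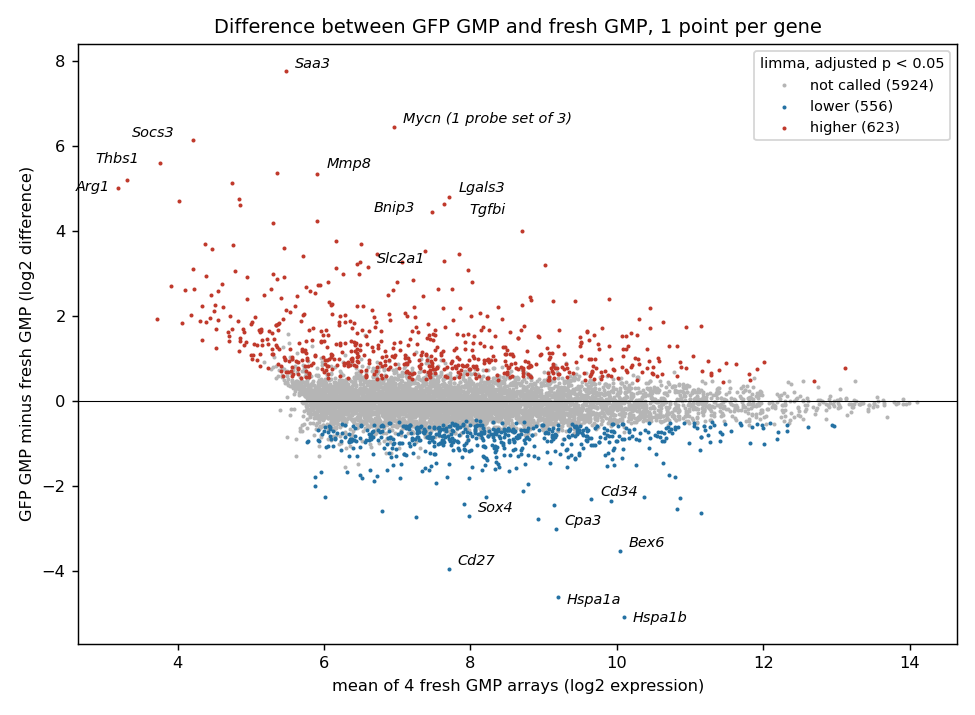
Each point is 1 of 7103 genes, with the mean of the 4 fresh GMP arrays on the x axis and the GFP minus fresh difference on the y axis, both on the log2 scale; red and blue points were called higher (623) and lower (556). The largest called increases, led by Saa3, start from low fresh levels, and Hspa1b and Hspa1a show the largest decreases.

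The largest increase was in Saa3, which encodes serum amyloid A3, an acute-phase protein made by macrophages and other cells under inflammatory stimulation. Saa3 read 5.58, 5.42, 5.32 and 5.62 on fresh GMP 1 to 4 and 13.15, 13.30 and 13.26 on GFP GMP 1 to 3. It was under 60 on every fresh array and far above it on every GFP array. The difference was 7.75 ± 0.14 (SE, n = 3 against 4; limma adjusted p = 1.059e-08), at least 161-fold against the level of 60. Beside Socs3 and a probe set of Mycn, which are described further on, the next largest increases were in Thbs1 (thrombospondin 1, an adhesive matrix glycoprotein; log2 difference 5.60), Tgm2 (transglutaminase 2; 5.36), Mmp8 (neutrophil collagenase; 5.34), Arg1 (arginase 1; 5.19) and Ms4a6d (a membrane protein of macrophages; 5.13). Tgm2 varied most among these on the GFP arrays, at 11.76, 8.70 and 11.70, against 4.43 to 6.00 on the fresh arrays. These are values of each gene's brightest probe set. The other tested probe sets of Tgm2 rose by 4.93, 4.84 and 2.78, and those that failed the filter differed by 0.50 and -0.07. The other probe set of Thbs1 rose by 2.49. Arg1 was between 2.91 and 3.47 on the fresh arrays, under the level of 60, and read 9.45, 7.64 and 8.39 on GFP GMP 1 to 3.

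**Figure D3:**
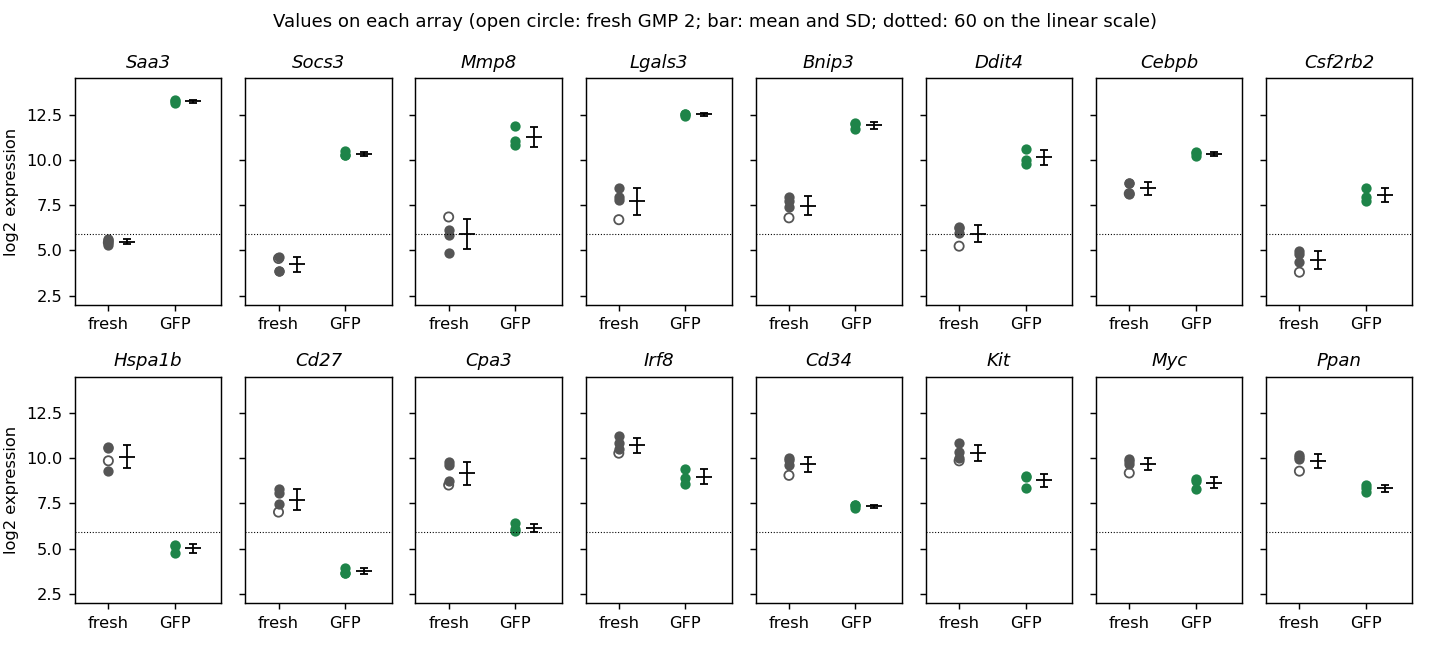
Log2 expression of 16 genes on each array, fresh GMP (grey; fresh GMP 2 as an open circle) and GFP GMP (green), with the mean and SD of each group and the level of 60 as a dotted line. The groups do not overlap for any of these genes; Saa3, Socs3 and Csf2rb2 are under 60 on every fresh array, and Hspa1b and Cd27 on every GFP array.

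Monocyte and macrophage genes rose together. Of 24 tested genes of that list, 20 were called higher and 0 lower, with a median difference of 1.78. The counts were 21 and 0 without fresh GMP 2, and 17 and 0 without GFP GMP 2. Lgals3, the glycan-binding lectin galectin 3 of macrophages, read 8.44, 6.69, 7.77 and 7.94 on fresh GMP 1 to 4 and 12.42, 12.55 and 12.55 on GFP GMP 1 to 3. The GFP values were nearly equal and all far above the fresh range, 27.8-fold higher (difference 4.80 ± 0.35, SE; limma adjusted p = 4.647e-05). Tgfbi, a matrix protein induced by TGF-beta and abundant in monocytes, read 7.88, 6.91, 7.78 and 7.99 and then 12.31, 12.30 and 12.23, a 24.9-fold difference. Vcan (versican, a matrix proteoglycan) rose at least 7.01-fold and Fn1 (fibronectin) 11.0-fold. The chemokine receptor Ccr2, which lets monocytes leave the marrow, read 7.41, 6.42, 7.90 and 7.69 on fresh and 9.80, 9.90 and 9.74 on GFP arrays, 5.5-fold higher. Ccr1 read 4.44 to 5.11 on fresh and 9.37 to 9.52 on GFP arrays, and Csf1r, the receptor of the macrophage growth factor M-CSF, 11.29 to 11.90 and 12.44 to 12.60. Summed over the 29 genes of the list on the array, the linear values ran from 8594 to 13773 on the fresh and from 38286 to 41484 on the GFP arrays. Mrc1, Cd163, Marco, Maf and Cd36, which mark tissue macrophages, were the members that failed the filter, and none exceeded 5.26 on any of the 7 arrays. In RNA from whole samples, more cells of a type cannot be told apart from more RNA per cell.

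Granule genes moved in both directions. Of 14 tested genes of the primary granule list, 4 were called higher and 2 lower (median difference -0.02), and the summed linear level was 80764 to 89470 on fresh and 87447 to 92733 on GFP arrays. The 2 largest increases among these were in Ctsc, the protease that activates granule proteases (5.24-fold), and Lyz2, the lysozyme of phagocytes (4.52-fold). The 2 lower genes were Nkg7, a protein of cytotoxic granule membranes that is also in the lymphoid list (2.00-fold), and Igfbp4, a secreted IGF-binding protein (1.88-fold). Of 23 tested genes of neutrophil maturation and secondary granules, 12 were called higher and 2 lower, with a median of 0.95. The counts were 14 and 4 without fresh GMP 2, and 9 and 2 without GFP GMP 1 or GFP GMP 2. Mmp8 read 5.82, 6.84, 4.88 and 6.09 on fresh GMP 1 to 4 and 11.04, 11.88 and 10.84 on GFP GMP 1 to 3, 40.6-fold higher (limma adjusted p = 8.234e-05), although its fresh mean lies at the level of 60 and 2 fresh arrays are under it. Il1r2, the decoy receptor of interleukin 1, was under 60 on 3 fresh arrays and rose at least 5.76-fold, and Itgb2, the beta chain of leukocyte integrins, rose 3.97-fold. The 2 lower genes encode proteins of the secondary granules, but not all genes of such proteins fell. Lcn2, which encodes another of them, was called higher (difference 1.28, limma adjusted p = 0.03171). It was called in 3 of the 7 comparisons that leave out an array. Cyba and Cybb of the same list were also called higher, with differences of 0.95 and 1.13. Camp (cathelicidin) fell 5.87-fold (difference -2.55 ± 0.24, SE; limma adjusted p = 0.0002215), and Ltf (lactoferrin) read 11.10, 9.44, 10.19 and 10.73 on fresh and 8.47, 7.94 and 7.89 on GFP arrays.

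Transcription factors that set myeloid fates changed in both directions, 7 higher and 3 lower of 20 tested, and 7 and 6 without fresh GMP 2. The Id proteins, among the higher genes, bind basic helix-loop-helix factors and keep them off DNA. Id2 read 5.04, 4.36, 4.70 and 5.06 on fresh GMP 1 to 4 and 7.88, 7.55 and 8.11 on GFP GMP 1 to 3, and Id3 and Id1 rose by 2.69 and 1.64 on the log2 scale. Cebpb, the C/EBP factor of emergency granulopoiesis and macrophages, read 8.74, 8.13, 8.09 and 8.74 and then 10.22, 10.41 and 10.39, so all 3 GFP values lay above all fresh values (3.77-fold; limma adjusted p = 0.0004469). Nfil3, Cebpd and Gfi1 were the other 3 higher genes, with differences of 1.52, 0.84 and 0.77. Irf8, the interferon regulatory factor that promotes monocyte and dendritic cell fates, read 11.23, 10.28, 10.52 and 10.81 and then 8.92, 8.57 and 9.40, 3.35-fold lower (limma adjusted p = 0.002685). Mef2c and Etv6 were the other 2 lower genes, with differences of -1.34 and -0.78. The master regulators Spi1 (PU.1) and Cebpa were not called, with differences of -0.05 and 0.36. Of 5 tested genes of the Hoxa cluster and its cofactors, Hoxa9 and Hoxa7 were not called (-0.06 and -0.33) and Hoxa5 was lower (-0.63; called in 2 of the 7 comparisons that leave out an array), while Meis1, a cofactor of these proteins, passed the test at a low level, with means of 5.87 and 4.09 that are both under 60; it lost its call in 3 of the 7 comparisons that leave out an array.

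Cytokine receptors and targets of JAK and STAT signalling were called higher more often than lower. Of 23 tested cytokine receptors, 7 were called higher and 1 lower (9 and 2 without fresh GMP 2, 4 and 1 without GFP GMP 2). Csf2rb2 and Csf2rb, which encode the mouse beta chains for IL-3 and for IL-3, GM-CSF and IL-5, are close paralogs whose probes may cross-hybridise. Csf2rb2 read 4.35, 3.79, 4.78 and 4.95 on fresh GMP 1 to 4 and 7.92, 8.46 and 7.75 on GFP GMP 1 to 3, at least 4.40-fold higher, and Csf2rb rose at least 1.75-fold. Il4ra rose 3.19-fold (limma adjusted p = 0.0001682). Kit, the receptor of stem cell factor, read 10.03, 9.85, 10.33 and 10.85 and then 9.00, 8.98 and 8.33, 2.83-fold lower, and was the 1 receptor called lower. Csf3r, the G-CSF receptor, read 8.62 to 9.18 on fresh and 8.83 to 8.98 on GFP arrays, with overlapping groups and a difference of 0.07.

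Of 15 tested JAK and STAT targets, 8 were called higher and 2 lower, with a median of 0.60. The counts were 9 and 4 without fresh GMP 2, and 6 and 1 without GFP GMP 2, GFP GMP 3 or fresh GMP 1. Socs3, which binds gp130 and the G-CSF receptor and ends their signals, read 3.83, 4.55, 4.61 and 3.87 on fresh GMP 1 to 4 and 10.28, 10.26 and 10.47 on GFP GMP 1 to 3. On this probe set, its brightest, Socs3 was under 60 on each fresh array and rose at least 21.6-fold (difference 6.12 ± 0.23, SE, limma adjusted p = 1.961e-06). Its other 2 probe sets were higher too, by 4.61 and 1.94. The one with the smaller rise had a fresh mean over 60, at 6.13 against 8.07 in GFP GMP. Cdkn1a (the Cdk inhibitor p21), Bcl6 (a transcriptional repressor), Gadd45g, Pim1 (a survival kinase), Mcl1 (a survival protein), Stat3 and Cish also rose, by 2.85, 1.86, 1.82, 1.48, 1.23, 0.78 and 0.57 on the log2 scale. The 2 lower genes were the D cyclins Ccnd2 and Ccnd1, with differences of -0.86 and -0.67, and limma called 0 lower without GFP GMP 1 or fresh GMP 3. Cish, a target of STAT5, was called in only 3 of 18 refits with other settings. Among RefSeq promoters of build GRCm38.p6 (250 bases before to 50 after a start site, 32851 windows), 8.30% held TTCNNNGAA, the core of a STAT site that reads alike on both strands, and 4 of the 25 windows of this list did, 2 of them starts of Bcl6 and the others those of Socs3 and Cish. The stretch of the Socs3 promoter around its match is shown because Socs3 is the most changed gene of the list. It lies on the minus strand at chr11:117969472-117969560, and the capitals mark the match, which begins at position -154 from the start site.
Socs3: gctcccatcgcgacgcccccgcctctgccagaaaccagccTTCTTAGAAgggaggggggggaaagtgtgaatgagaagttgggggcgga

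Genes of glycolysis and the hypoxia response were raised in GFP GMP. Of 30 tested, 23 were called higher and 1 lower, with a median difference of 1.56, and leaving out any array kept 19 to 25 higher calls. Bnip3, a mitophagy receptor induced by HIF-1, read 7.40, 6.79, 7.74 and 7.94 on fresh GMP 1 to 4 and 11.99, 11.68 and 12.04 on GFP GMP 1 to 3. The 3 GFP values exceeded the highest fresh value by over 3 log2 units, and the difference was 21.6-fold (4.43 ± 0.26, SE; limma adjusted p = 1.697e-05). Slc2a1, the glucose transporter GLUT1, read 6.51, 6.15, 6.73 and 6.98 and then 9.80, 9.70 and 9.76, 8.91-fold higher. Slc16a3, which exports lactate, rose at least 5.48-fold, Egln3, an oxygen-sensing prolyl hydroxylase that HIF induces, 6.94-fold, Ero1a, an oxidase of disulfide formation, 5.17-fold, and Ldha, which makes lactate, 3.02-fold. Ldhb, which encodes the other lactate dehydrogenase subunit, was the 1 gene called lower (-0.71; named after its value was seen). Of 48 tested genes of the respiratory chain 0 were called by limma (median -0.09), with 0 higher and 5 lower at an unadjusted p under 0.05. Without fresh GMP 2, 9 were called lower, beside 24.6% of all genes tested. Of 20 tested genes of the citric acid cycle, Idh1, whose product works in the cytosol, rose 1.80-fold and Idh2, its mitochondrial counterpart, fell 1.56-fold. For this list limma called 0 lower without an array other than fresh GMP 2 or fresh GMP 4. Of all genes tested, 8.77% were called higher and 7.83% lower.

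The core of the hypoxia response element, ACGTG, stood in 58.0% of the 50 promoter windows of the glycolysis and hypoxia list and in 19.6% of all windows, searched on both strands. This motif was added after the values had been seen. Of the 25 genes with a match, 18 were called higher and 0 lower, and of the 9 genes without a match 4 were called higher and 1 lower. Bnip3 and Slc2a1, the 2 most changed genes, are shown with the match in capitals. Bnip3 is at chr7:138909569-138909654 (minus strand) with overlapping matches at -108 and -107 that together spell CACGTG, so the same letters also match a Myc E-box. Slc2a1 is at chr4:119108669-119108744 (plus strand) with a match at -36.
Bnip3: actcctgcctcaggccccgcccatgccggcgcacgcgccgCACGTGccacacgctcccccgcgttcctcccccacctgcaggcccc
Slc2a1: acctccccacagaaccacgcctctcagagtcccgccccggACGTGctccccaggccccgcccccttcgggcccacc

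The ATF4 program, which cells use when amino acids are short or other stress slows translation, was also raised. Of 25 tested genes 14 were called higher and 0 lower (median 1.00), and without fresh GMP 2 the counts were 16 and 1. They were 10 and 0 without GFP GMP 1. Cth, the enzyme that makes cysteine from cystathionine, read 3.06, 3.43, 3.07 and 3.20 on fresh GMP 1 to 4 and 8.98, 7.5 and 8.11 on GFP GMP 1 to 3, at least 4.90-fold higher (limma adjusted p = 1.865e-05). Ddit4 (REDD1, an inhibitor of mTORC1) read 6.21, 5.23, 5.94 and 6.26 and then 9.79, 10.02 and 10.61, 18.8-fold higher. Nupr1, a stress-induced nuclear protein, rose at least 4.43-fold. Slc7a11, the cystine importer, read 4.35 to 5.29 on fresh and 6.28 to 6.39 on GFP arrays. The classic targets Ddit3 (CHOP) and Psat1, named after their values were seen, were not called, with differences of 0.37 and 0.60. Of 17 aminoacyl-tRNA synthetases 2 were called higher, Gars (1.60-fold) and Cars (1.46-fold), and 0 of the list were called by limma when GFP GMP 1, fresh GMP 1 or fresh GMP 3 was left out. Endoplasmic reticulum chaperones stayed near their fresh levels, with 2 of 22 called higher, Ero1a and Xbp1, and a median of 0.03. The counts of these 2 lists, synthetases and chaperones, stand beside 8.77% called higher of all genes tested.

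A composite site for ATF4 and C/EBP, TGATGNAA searched on both strands, stood in 32.3% of the 31 windows of the ATF4 list and in 3.97% of all windows. Of the 10 genes with a match 6 were called higher, and 7 of the other 17 genes with a promoter were. The promoters of Nupr1 and Slc7a11 are printed because both matched and rose. Nupr1 is at chr7:126625533-126625620 (minus strand), and its match at -110 reads on the opposite strand. Slc7a11 is at chr3:50443614-50443719 (minus strand), with matches at -66 and -47, the second of them on the opposite strand.
Nupr1: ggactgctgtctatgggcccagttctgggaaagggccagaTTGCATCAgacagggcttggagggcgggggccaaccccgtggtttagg
Slc7a11: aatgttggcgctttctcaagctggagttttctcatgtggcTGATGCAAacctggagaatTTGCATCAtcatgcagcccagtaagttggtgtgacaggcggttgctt

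Enzymes of cholesterol synthesis rose along most of the pathway, 14 of 21 tested and 0 lower (median 1.13). The higher calls numbered 17 without fresh GMP 2 and 10 without GFP GMP 3. Msmo1, which removes methyl groups from sterols, read 6.19, 5.51, 6.32 and 6.44 on fresh GMP 1 to 4 and 8.27, 8.26 and 8.65 on GFP GMP 1 to 3, 4.85-fold higher (limma adjusted p = 0.0003554). Fdft1, which makes squalene, rose 3.92-fold, Sc5d 3.59-fold and Cyp51, which was under 60 on each fresh array, at least 2.32-fold. The regulators Srebf1 and Srebf2, named after their values were seen, were not called, with differences of 0.37 and 0.57. Of 18 tested genes of fatty acid metabolism 2 were higher and 1 lower (median -0.08), beside 8.77% higher and 7.83% lower of all genes tested. Scd2, a desaturase, rose 2.70-fold, Plin2, a coat protein of lipid droplets, 1.73-fold, and Fabp5, a fatty acid carrier, fell 1.67-fold. TCACNCCAC, a sterol response element searched on both strands, was found in 1.24% of all windows and in only 1 of the 26 windows of the cholesterol list, that of Hmgcs1, which encodes the enzyme of the step before HMG-CoA reductase. Hmgcs1 was called higher (1.28) and was named for this match. It is shown at chr13:119690174-119690262 (plus strand), with the match at -137 in capitals.
Hmgcs1: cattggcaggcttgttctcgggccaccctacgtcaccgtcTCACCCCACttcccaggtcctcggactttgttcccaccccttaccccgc

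Of 28 tested lysosomal genes 12 rose and 0 fell (median 0.50; 13 and 2 without fresh GMP 2, 7 and 0 without GFP GMP 1 or GFP GMP 2). Ctsl and Ctss, cysteine proteases of lysosomes, rose most. Ctsl read 7.86, 7.39, 7.80 and 8.31 and then 11.34, 11.52 and 10.99, 10.9-fold higher, and Ctss rose 9.17-fold. Psap, the precursor of lysosomal activator proteins, rose 3.29-fold and Ctsh 2.18-fold. Cathepsin S is itself a member of the macrophage list. Among genes of iron handling, 5 of 15 rose and 1 fell. Tfrc (the transferrin receptor), Slc40a1 (the iron exporter) and Slc11a1 (the iron transporter of phagosomes) rose by 0.91, 1.18 and 1.04, and Alad, an enzyme of heme synthesis, fell at least 2.71-fold.

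**Figure D4:**
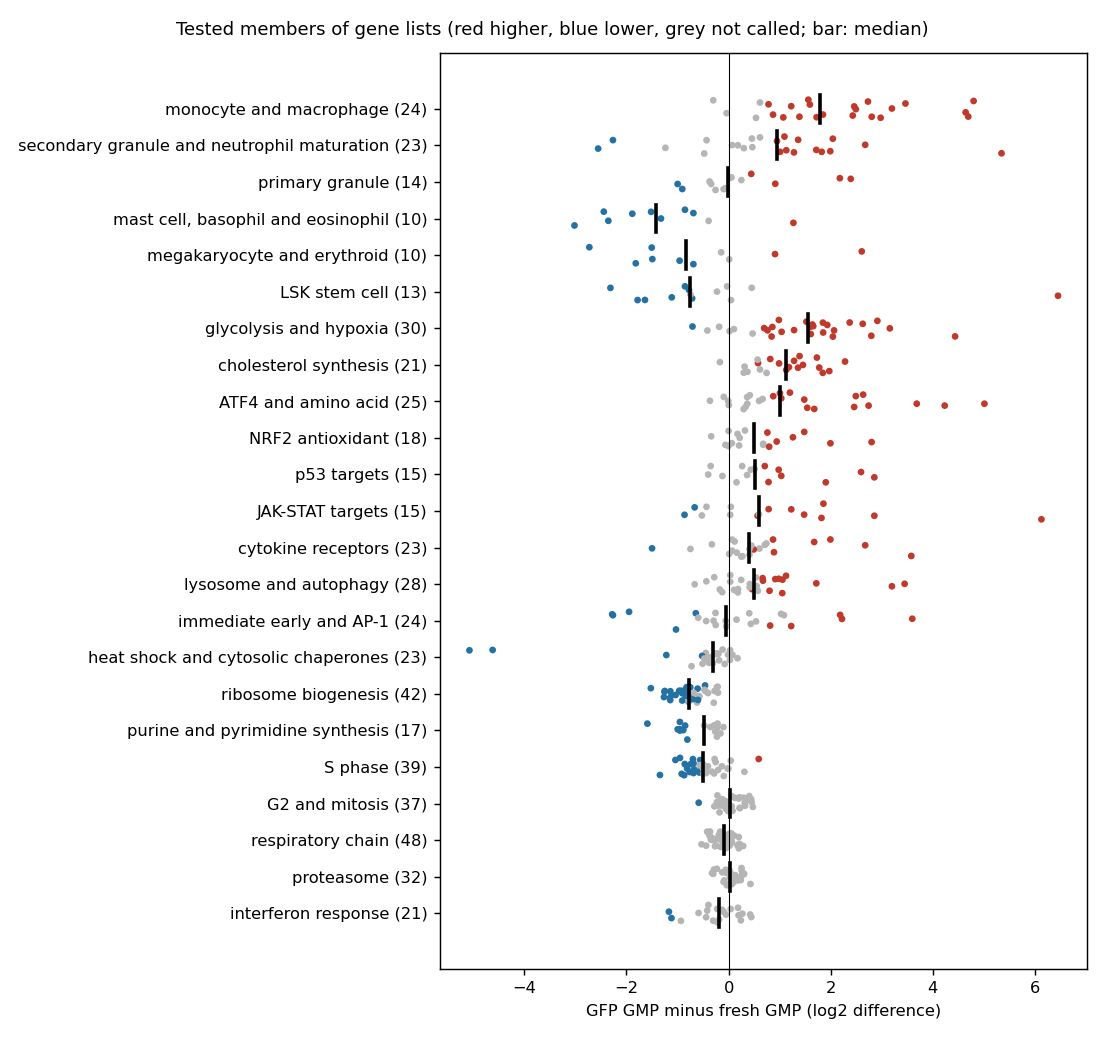
Log2 difference, GFP minus fresh, of each tested member of 23 gene lists, with the number tested in parentheses; points are genes (red higher, blue lower, grey not called) and black bars are medians. The medians run from 1.78 for the monocyte and macrophage list to -1.42 for the mast cell, basophil and eosinophil list, and lie near 0 for the respiratory chain, the proteasome and mitosis. The far point of the stem cell list is the Mycn probe set, whose other 2 probe sets do not share its rise.

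Some genes of oxidative, metal and p53-linked stress were higher. Of 18 tested NRF2 antioxidant genes 7 rose and 0 fell (median 0.50). Hmox1, the heme-degrading enzyme, read 5.91, 6.63, 5.95 and 5.74 on fresh GMP 1 to 4 and 9.01, 8.78 and 8.78 on GFP GMP 1 to 3, 6.96-fold higher, and Gclm, a subunit of the glutathione-making ligase, rose 3.98-fold. The metallothioneins Mt2 and Mt1, which bind zinc and answer to glucocorticoids as well, rose 11.4-fold and 2.89-fold. Of 15 tested p53 targets 7 rose and 0 fell (median 0.51; 4 and 0 without GFP GMP 1). Cdkn1a read 7.32, 7.09, 7.29 and 7.17 and then 10.23, 9.73 and 10.25, 7.23-fold higher with little spread in either group (limma adjusted p = 1.697e-05), and Trp53inp1 rose at least 5.64-fold. Mdm2, a p53 target named after its value was seen, was not called (0.51). Of the glucocorticoid targets 8 of 14 tested were higher and 1 lower, but Fkbp5, Tsc22d3 and Per1, common markers of the glucocorticoid receptor, were not called, with differences of -0.49, -0.09 and 0.14. The higher glucocorticoid targets numbered 4 without GFP GMP 1 and 5 without GFP GMP 2, GFP GMP 3, fresh GMP 1 or fresh GMP 3.

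Hspa1b and Hspa1a, neighbouring genes that encode the inducible heat shock protein Hsp70, fell further than any other genes. Hspa1b read 10.64, 9.86, 9.29 and 10.59 on fresh GMP 1 to 4 and 4.74, 5.13 and 5.19 on GFP GMP 1 to 3. It was well above 60 on every fresh array and under 60 on every GFP array, at least 18.2-fold lower (difference -5.07 ± 0.32, SE; limma adjusted p = 2.348e-05). Hspa1a fell at least 9.75-fold, but the 2 genes are near-identical in their coding sequence and their probe sets may read both. Hsph1, a cochaperone, fell 2.33-fold and Cct3, a chaperonin subunit, 1.43-fold. These were the 4 of 23 tested chaperone genes called, all lower (median -0.31), and 11 were lower without fresh GMP 2. The constitutive Hspa8, named after its value was seen, differed by -0.08. GAANNTTC, the core of a heat shock element that reads alike on both strands, stood in 39.3% of the 28 windows of this list and in 7.86% of all windows, a motif that was added after the values had been seen. Hspa1b is shown as the gene with the largest decrease, at chr17:34959295-34959382 (minus strand) with the match at -104.
Hspa1b: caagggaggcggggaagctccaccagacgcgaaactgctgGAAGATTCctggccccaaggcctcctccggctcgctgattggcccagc

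Immediate early genes, which cells switch on within minutes of a stimulus, were called in both directions, 5 higher and 5 lower of 24 tested, and 8 and 5 of 23 without fresh GMP 2. Fos read 10.91, 12.03, 10.28 and 10.20 on fresh GMP 1 to 4 and 9.65, 7.66 and 8.41 on GFP GMP 1 to 3, 4.86-fold lower (limma adjusted p = 0.02008). Jun, its partner in AP-1, read 8.75, 10.13, 8.17 and 8.07 and then 7.24, 6.51 and 6.75, and Dusp1, a MAP kinase phosphatase, 7.90, 10.13, 7.65 and 7.15 and then 6.65, 5.38 and 5.79. The highest value of all 3 genes was on fresh GMP 2, and without it the differences were -1.89, -1.50 and -1.62. The 5 lower calls also include Myc and Dusp2; limma called 0 of the list lower without GFP GMP 2, 1 without GFP GMP 3, 2 without fresh GMP 1 and 3 without fresh GMP 3. Zfp36l1, which destabilises AU-rich messages, read 5.48, 5.20, 5.55 and 5.60 and then 9.15, 9.15 and 8.86, at least 8.85-fold higher. Atf3 and Ier3 rose at least 3.77-fold and 4.54-fold, and Ier5 and Junb by 1.22 and 0.81 on the log2 scale. Klf6 and Klf2 were not called with all 7 arrays (differences 1.08 and 1.03), and both were highest among the fresh arrays on fresh GMP 2. Without it both were called higher by limma, with differences of 1.62 (adjusted p = 6.192e-05) and 1.64 (adjusted p = 0.0001486). Klf6 read 5.78, 7.89, 5.56 and 5.92 on fresh and 7.47, 7.44 and 7.20 on GFP arrays.

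Genes of ribosome biogenesis were lower. Of 42 tested genes of ribosome biogenesis 29 were called lower and 0 higher, and all 42 differences were negative (median -0.78). The count was 38 without fresh GMP 2 but 9 without GFP GMP 2 and 14 to 27 without another array. Ppan, a nucleolar protein of large-subunit assembly, read 9.95, 9.28, 10.05 and 10.16 on fresh GMP 1 to 4 and 8.36, 8.12 and 8.53 on GFP GMP 1 to 3, 2.87-fold lower (limma adjusted p = 0.002349). Nop2, an rRNA methyltransferase, fell 2.41-fold, Nop58 (small nucleolar RNPs) 2.39-fold and Utp20 (small-subunit assembly) 2.38-fold. Myc, the transcription factor that drives many of these genes, read 9.70, 9.18, 9.96 and 9.86 and then 8.87, 8.32 and 8.75, 2.04-fold lower (limma adjusted p = 0.01445). Of 15 enzymes known as Myc targets 7 fell, among them Cad (3.01-fold), which starts pyrimidine synthesis, Pus7 (a pseudouridine synthase; 2.85-fold) and Srm (spermidine synthase; 2.24-fold), and 1 rose, Ldha (4 fell without GFP GMP 2, fresh GMP 1 or fresh GMP 3). Of 36 cytosolic ribosomal proteins 1 was called, Rpl12, lower, and the median was -0.07. Mitochondrial ribosomal proteins had 3 lower of 53 (median -0.24), 15 without fresh GMP 2 and 0 to 2 without another array. Of all genes tested, 7.83% were lower, and 24.6% without fresh GMP 2.

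Many genes of DNA replication fell, and few genes of mitosis were called. Of 39 tested S phase genes 18 were called lower and 1 higher (median -0.50), 29 lower without fresh GMP 2, and 3 to 14 lower without another array, fewest without GFP GMP 1. Ung, which removes uracil from DNA, read 9.50, 8.94, 9.59 and 9.70 on fresh GMP 1 to 4 and 7.86, 8.23 and 8.18 on GFP GMP 1 to 3, 2.54-fold lower (limma adjusted p = 0.002964). Pole, Prim1 and Pola1, polymerases of the replication fork, fell 2.06-fold, 1.93-fold and 1.89-fold. Rrm2, a subunit of ribonucleotide reductase, was the 1 gene called higher (0.59, named after its value was seen). For this list limma called 0 higher without an array other than fresh GMP 2 or fresh GMP 4. Of 37 genes of G2 and mitosis 1 was called, Kif23, lower, and the median was 0.02; Mki67, the proliferation marker Ki-67 (named after its value was seen), averaged 10.92 ± 0.13 (SD, n = 4) in fresh and 11.04 ± 0.15 (SD, n = 3) in GFP GMP. Whether the S phase and mitotic lists differ from each other was not tested. Of 17 genes of nucleotide synthesis 8 fell and 0 rose (4 fell without GFP GMP 2), with Cad, Dhodh, Gart and Umps lowest at differences of -1.59, -1.0, -0.95 and -0.95. Among cyclins and Cdk inhibitors, Cdkn1a, Cdkn2d and Cdkn1b rose 7.23-fold, 3.12-fold and 2.06-fold, and Ccnd2, Cdk4 and Ccnd1 fell, by differences of -0.86, -0.73 and -0.67. The lower calls of that list numbered 0 by limma without GFP GMP 1 or fresh GMP 3, 1 without GFP GMP 2, fresh GMP 1 or fresh GMP 4 and 2 without GFP GMP 3.

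TTTNGCGC, the core of an E2F site searched on both strands, stood in 22.7% of the 44 windows of the S phase list and in 1.38% of all windows, and 8 of the 10 genes with a match and 7 of the other 28 were called lower. CACGTG, the Myc E-box, which reads alike on both strands and contains the hypoxia core, stood in 15.2% of the 46 ribosome biogenesis windows and in 7.15% of all. Of the 7 genes with a match 5 were called lower, and 21 genes of the list without a match were called lower as well. Pola1 and Nop2 are shown as named genes of each list with a match before the start site. Pola1 is at chrX:93632246-93632333 (minus strand) with a match at -138 that reads on the opposite strand, and Nop2 at chr6:125131783-125131868 (plus strand) with a match at -60.
Pola1: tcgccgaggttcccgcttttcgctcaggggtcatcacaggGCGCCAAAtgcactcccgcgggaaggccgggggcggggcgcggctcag
Nop2: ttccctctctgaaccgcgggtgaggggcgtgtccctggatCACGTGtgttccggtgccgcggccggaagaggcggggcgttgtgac

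Stem and progenitor genes were lower in GFP GMP. Cd34 read 9.62, 9.05, 10.02 and 9.92 on fresh GMP 1 to 4 and 7.40, 7.23 and 7.39 on GFP GMP 1 to 3, 4.97-fold lower (limma adjusted p = 0.0002817). Cd27, a TNF receptor family member of progenitors and lymphocytes, read 7.44, 7.02, 8.29 and 8.06 and then 3.93, 3.67 and 3.65, so it was over 60 on all fresh and under 60 on all GFP arrays and fell at least 3.47-fold. Sox4, a transcription factor of progenitors, fell at least 4.20-fold on its brightest probe set. Its other tested probe sets fell less, with differences of -2.08, -1.11 and -0.95. Bex6, a small protein of unclear function, fell 11.5-fold, and F2r, a thrombin receptor of megakaryocytes and progenitors, 6.89-fold. Of the 12 tested genes of the stem cell list other than Mycn, 7 were called lower and 0 higher (median -0.76), namely Cd34, Meis1, Tal1, Cd48, Gata2, Etv6 and Lmo2. Their list summed to 3593 to 5560 on the linear scale on fresh and 2372 to 2901 on GFP arrays. The count was 8 lower for the whole list without fresh GMP 2 and 3 without GFP GMP 2.

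Mycn has 3 probe sets that disagree. The brightest, 1425923_at, read 6.80, 7.80, 6.80 and 6.43 on fresh GMP 1 to 4 and 13.45, 13.12 and 13.65 on GFP GMP 1 to 3, an 87.4-fold difference (limma adjusted p = 3.636e-06). The other 2, 1417155_at and 1425922_a_at, had means under 60 in both groups, 4.24 and 4.96 in fresh and 3.79 and 4.96 in GFP GMP. In fresh LSK cells, by contrast, 1417155_at averaged 7.30 while 1425923_at stayed at 6.79. The 1425923_at probe set was also high after infection with each oncogene, with means of 10.57 (MOZ-TIF2), 11.84 (NUP98-HOXA9) and 12.56 (AML1-ETO), and averaged 9.64 in leukemic GMP. What RNA this probe set reads in infected cells was not tested, and its rise is not counted here as a rise of Mycn.

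Markers of other lineages that a GMP gate can hold were mostly lower. Of 10 tested genes of mast cells, basophils and eosinophils 8 were lower and 1 higher (median -1.42), and 5 to 8 were lower with an array left out, fewest without GFP GMP 1 or fresh GMP 3. Cpa3, the mast cell carboxypeptidase, read 8.74, 8.52, 9.77 and 9.63 on fresh GMP 1 to 4 and 5.97, 6.40 and 6.06 on GFP GMP 1 to 3, 8.10-fold lower. Prg2 (eosinophil major basic protein) fell 5.44-fold, Hdc (which makes histamine) 5.11-fold and Epx (eosinophil peroxidase) at least 1.71-fold. Fcer1g, the higher gene, encodes an Fc receptor chain that monocytes also use. The list's 20 genes on the array summed to 3207 to 4086 on fresh and 1877 to 1953 on GFP arrays. Of 10 megakaryocyte and erythroid genes 6 were lower, led by Car1, Car2 and Pf4 (-2.73, -1.82 and -1.51), and 2 higher, Tfrc, which dividing cells also use, and Ppbp. Their sums overlapped, at 2620 to 3652 and 1934 to 2909. Of 7 lymphoid genes 2 were lower, Nkg7 and Ighm (sums 6087 to 7485 and 2751 to 2926). Ighm, the immunoglobulin heavy chain, fell 6.27-fold on its brightest probe set, and of its 11 probe sets 3 were tested, of which 2 fell (-2.65 and -2.71) and 1 was not called (0.29). Of 6 tested dendritic cell and MHC class II genes 1 rose, H2-Ab1, and 2 fell, H2-DMa and Cst3, with sums of 2442 to 3413 and 2007 to 2403. Without fresh GMP 2, 5 of these 6 were lower, and without any other array limma called 0 lower. H2-Ab1 was called higher in 2 of the 7 comparisons that leave out an array. Stromal genes mostly failed the filter, with 4 of 15 tested and 1 of them called (Vcam1, 1.67-fold higher, a call that was lost without any array but fresh GMP 2), and sums of 546 to 912 and 748 to 891. The part these cell types may play in the differences of other lists was not tested.

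Of 11 tested NF-kB genes 2 were called higher, Bcl3 and Birc3 (at least 1.41-fold and 2.08-fold), 4 without fresh GMP 2, and of 21 interferon genes 2 were lower, Gbp3 (2.25-fold) and Ifi47 (2.17-fold), 8 without fresh GMP 2 and 1 without GFP GMP 1, GFP GMP 3, fresh GMP 1, fresh GMP 3 or fresh GMP 4. Of 6 MAP kinase feedback genes 0 were called by limma, and 0 also at an unadjusted p under 0.05, with 2 lower without fresh GMP 2. Of 32 proteasome genes 0 were called by limma (median 0.04), 0 at an unadjusted p under 0.05, and 3 were lower without fresh GMP 2. The lower counts of these lists stand beside 7.83% lower of all genes tested, and 24.6% without fresh GMP 2. Nuclear transport had 5 lower of 23, led by Rcc1 and Ipo5 (1.86-fold and 1.79-fold), 0 without GFP GMP 2 and 11 without fresh GMP 2. Of 22 chromatin genes 2 were lower, the DNA methyltransferase Dnmt3b (2.73-fold) and the Polycomb methyltransferase Ezh2 (1.47-fold), with 9 lower without fresh GMP 2 and 1 without any other array except fresh GMP 4. Among targets of TGF-beta and BMP, 6 of 11 rose, with Tgfbi, Id2, Cdkn1a and Id3 the largest, and the count was 6 whichever array was left out; 5 of these genes stand in other lists above. Of the Bcl2 family, 4 of 11 rose and 1 fell, and 2 rose without GFP GMP 1. The survival gene Mcl1 read 10.36 to 10.46 on fresh and 11.53 to 11.73 on GFP arrays, the death-promoting Bcl2l11 (Bim) and Pmaip1 (Noxa) rose 2.36-fold and at least 1.47-fold, and Bcl2 itself fell 2.00-fold. Of 11 circadian genes 2 were higher, Bhlhe40 (at least 3.38-fold) and Nfil3, while Nr1d2, Dbp and Per1 were not called, at -1.29, -0.62 and 0.14.

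Levels in the other groups are set beside these as a description with no test, since every comparison with fresh GMP shares its 4 arrays. Saa3 averaged 5.21 in fresh LSK cells, 12.66, 13.43 and 13.54 in GMP with MOZ-TIF2, NUP98-HOXA9 and AML1-ETO, and 11.18 in leukemic GMP. Bnip3 averaged 7.99 in LSK, 10.94, 11.84 and 11.89 in the 3 oncogene groups and 8.44 in leukemic GMP, with leukemic arrays at 8.36 to 8.48. Socs3 averaged 7.31 in LSK, above fresh GMP at 4.21, then 9.66, 10.70 and 10.79 in the oncogene groups and 6.72 in leukemic GMP. Tgfbi averaged 7.96, then 11.84, 12.39 and 11.59, and 9.36. For these 4 genes the infected groups, all harvested at 36 hours, lay above both fresh groups and above leukemic GMP. Hspa1b averaged 8.80 in LSK, 5.21, 4.87 and 6.54 in the oncogene groups and 11.46 in leukemic GMP. Cd27 averaged 9.25, then 5.01, 4.57 and 5.05, and 7.24, and Fos 12.77, then 8.36, 7.70 and 9.77, and 11.32. Infected cells were thus the low groups for Hspa1b, Cd27 and Fos by their means, although AML1-ETO arrays reached 11.04 for Fos, inside the fresh GMP range. Cpa3 differed more among infected groups, at 6.50, 6.11 and 7.87, and leukemic arrays ran from 4.98 to 8.37. The brightest probe set of Sox4, lower with GFP (5.27) than in fresh GMP (7.98), averaged 8.54 with MOZ-TIF2, 5.78 with NUP98-HOXA9 and 7.01 with AML1-ETO.

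**Figure D5:**
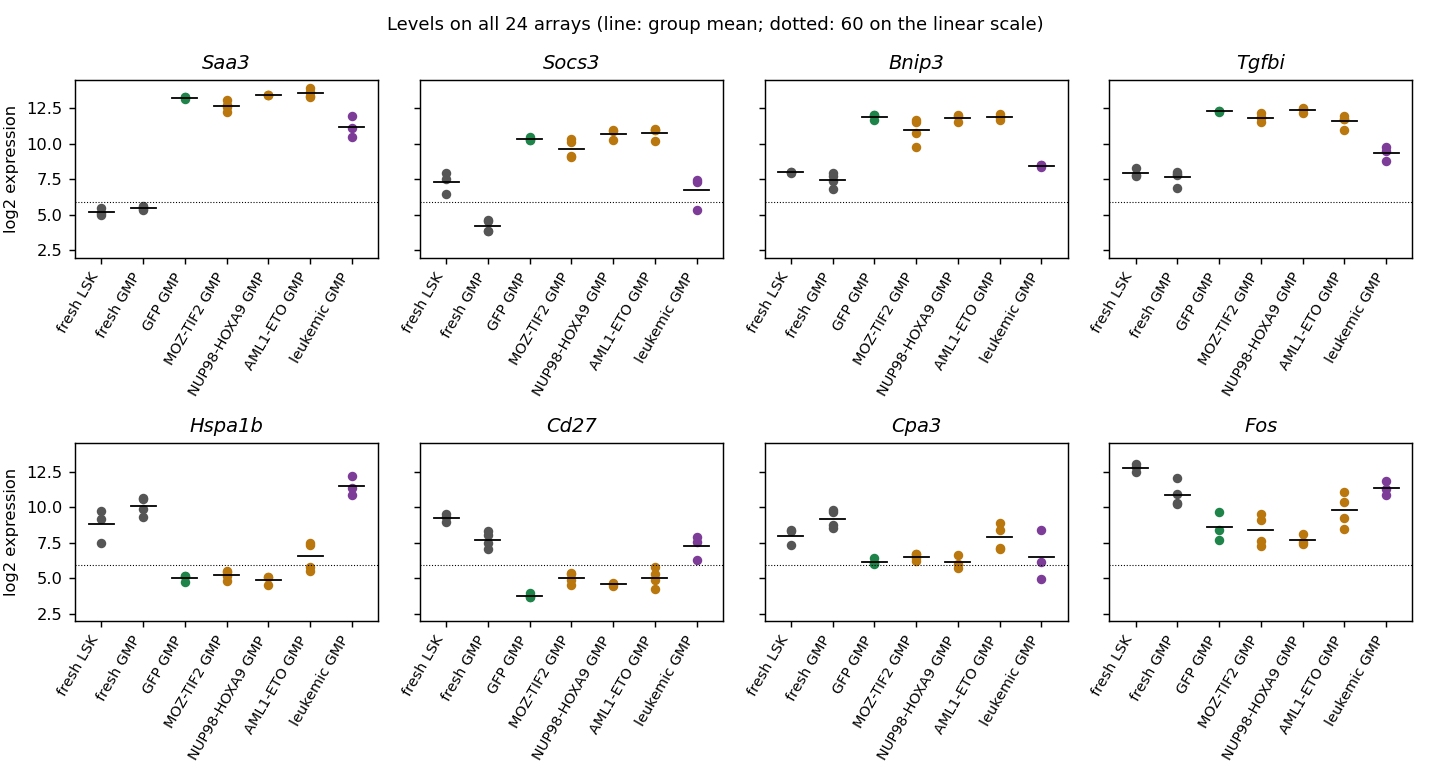
Log2 expression of 8 genes on all 24 arrays by group, with a line at each group mean and the level of 60 dotted; sorted normal cells are grey, GFP GMP green, oncogene-infected GMP orange and leukemic GMP purple. Saa3, Socs3, Bnip3 and Tgfbi are highest in the infected groups, and Hspa1b and Cd27 have their lowest means there.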

How the data were processed

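RNA of 24 samples, 1 array each, was amplified and hybridised to Affymetrix Mouse Genome 430A 2.0 arrays, per the labels' protocols. The deposited values are log2 expression estimates, which the authors computed from MAS5 cell files with GCRMA 2.4.1, as the submitters' processing notes give it. That method subtracts a background estimated from probe sequence and then equalises the arrays, so low values are shrunken estimates and no value is a count of molecules. The authors' removal of outlier arrays and their present calls, per the series design text, were not repeated here.

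Of 22690 probe sets 64 controls were left out, and 20380 with 1 gene symbol stood for 12393 genes. Each gene was represented by its brightest such probe set, averaged over all 24 arrays. Under R 4.3.3, limma 3.58.1 with empirical Bayes moderation (two-sided) compared the 7 arrays over 11363 probe sets, with Benjamini-Hochberg adjustment over all of them and a threshold of 0.05. A fold is "at least" where a group's mean or all its arrays were under 60. Precision is limited by having only 7 arrays. The fit was tested on simulated data.

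Genes are named as the 15 largest changes in each direction whose groups did not overlap, the 4 largest called in each of 57 lists, and all members of short lists and of certain others. The members and lists were chosen with earlier results of these data known. No pairing was used, because the labels do not say that replicate numbers pair samples. The deviations of same-numbered arrays correlated at -0.17, 0.13 and 0.27. Promoters are RefSeq windows of GRCm38.p6. Alternatives covered the filter, normalization, arrays and probe sets used.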

Additional observations from a re-analysis of the deposited data

Results flagged for a closer look

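In the 4 fresh GMP arrays, 17 of the 296 named genes that were tested (5.74%) had 1 array set apart from the other 3 by a gap above Dixon's limit, which chance passes in about 1 of 20 groups, so that the number is close to what chance gives. These genes share the same 4 arrays, so this rate does not cover how often 1 array is the separate one. For 12 of the 17 genes that array was fresh GMP 2, which also stood apart over all probe sets. It was highest for the immediate early genes Jund (10.11, nearest other 8.30), Ier2 (9.80, nearest 9.30) and Klf6 (7.89, nearest 5.92). It was lowest for the cytokine receptor genes Il6st (5.89, nearest 7.21), Il6ra (6.53, nearest 7.27) and Ifnar1 (5.48, nearest 6.26), for the immunoproteasome genes Psmb8 (10.25, nearest 10.79) and Psmb9 (8.39, nearest 9.20), and for Car2 (7.43), Cd48 (9.06), Ahcy (10.67) and Eif3b (10.79).

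Fresh GMP 4 was the separate array for 4 genes, at 2.91 for Arg1, 8.30 for Cebpd, 5.58 for Col1a2 and 6.16 for Id1. Fresh GMP 1 was the separate array for Tfrc, at 9.57 against 9.41 on the nearest other. All of these values are log2 expression.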

How the results depend on the processing

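The 1179 called genes became 1931 after quantile normalization (1034 lower), 1877 after median centring (979 higher, 898 lower) and 1790 in a fit to all 24 arrays with the file name tag as a term (997 higher). They became 412 by the methods' t-test with Benjamini-Hochberg adjustment (270 higher, 142 lower; 2024 at an unadjusted p under 0.05) and 508 with a change of at least 2-fold (347 higher, 161 lower). Leaving out 1 array gave 543 to 2616 called genes, 370 to 885 higher and 163 to 1731 lower. The cause of these shifts was not tested. With the replicate number as a block 1071 genes were called (661 higher, 410 lower), and as a hint from the data only, GFP GMP 2 and 3 each correlated best with the fresh array of their own number and GFP GMP 1 with fresh GMP 4. The share called higher was 52.8%, and ran from 33.8% without fresh GMP 2 to 70.0% without GFP GMP 2. Of the 189 named genes that were called, 126 were called with each array left out and 79 in all 18 refits of the probe sets. Of these called genes, 0 were called in the opposite direction by limma in any of these alternatives. Differences of genes that were not called could change sign, such as that of Jund, from -0.25 to 0.21 without fresh GMP 2. Values near the level of 60 limit what can be read as a change.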

Other observations

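Adhesion and migration genes not described above also changed. Of 16 tested integrin and selectin ligand genes 6 were higher and 2 lower (4 and 1 without GFP GMP 1 or GFP GMP 2). The integrin chains Itgb7 and Itgb5 rose by 1.57 and 1.52 on the log2 scale, and Itga2b, the platelet integrin, and Icam2 differed by -1.49 and -0.81. Itgam, another integrin chain, passed the test at a low level (1.82), with means of 4.06 in fresh and 5.88 in GFP GMP, both under 60. It was called in 5 of the 7 comparisons that leave out an array. Among chemokine receptors and ligands, 6 of 13 were higher and 1 lower (3 higher of 11 without GFP GMP 1 or GFP GMP 2), including the monocyte chemokine Ccl6 (2.22), the complement receptor C3ar1 (1.07) and the neutrophil receptor Cxcr2 (1.01; called with 2 of the 7 arrays left out in turn).

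Of 15 tested genes linked to quiescence and FoxO factors 5 were higher and 0 lower (3 higher without GFP GMP 2, 7 higher and 2 lower without fresh GMP 2), among them the antiproliferative Btg1 (1.61), the glucose-uptake inhibitor Txnip (1.39) and cyclin G2, Ccng2 (1.09). In the Myc and Max network the repressor Mxi1 rose by 1.04. Of 11 genes of MHC class I and antigen processing 1 was lower, Psmb10 (-0.88), and 5 were lower without fresh GMP 2. Of all genes tested, 7.83% were lower, and 24.6% without fresh GMP 2.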
